A study of Apis cerana with 9 samples.

Results

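The genes described here were the 4 that the deposited table of the *A. cerana* proboscis names as vitellogenin precursor (LOC108000069), vitellogenin-like (LOC107996917), hexamerin-like (LOC107995056) and apolipophorins (LOC107995298). They were chosen by name, as proteins of storage and transport, out of 12757 genes in the table, and all 4 were among the 9259 genes with enough signal to be tested. Vitellogenin is the lipid-carrying yolk protein of insects. In worker honey bees (*A. mellifera*) the fat body makes it too, and it is known as a nutrient store of nurses that stands in mutual repression with juvenile hormone, the hormone that rises when workers become foragers. Hexamerins are blood proteins that larvae and young adults store as a source of amino acids. Apolipophorins form the protein shell of lipophorin, the particle that carries lipid through insect blood to muscle, glands and other tissues.

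The 9 libraries were RNA-seq of the proboscis, the tongue with which a bee takes up nectar, from bees that the labels name by their pollen load: 3 libraries from bees without pollen (non-pollen), 3 from bees with pear pollen (pear) and 3 from bees with rapeseed pollen (rapeseed). The labels do not give age, caste, colony, day, or whether a library was 1 bee or a pool, so each p-value rests on the differences among these libraries alone, and those may be technical. The libraries held between 43034759 and 64306245 counts. The non-pollen libraries stood apart from all others. A list of 39 genes was matched by name to the head glands, among them the major royal jelly proteins and alpha-glucosidase. It took 37.1 to 37.6% of the counts of the non-pollen libraries, against 0.901 to 1.21% in pear and 0.794 to 0.837% in rapeseed. No dissection of glands is named in the labels, and pollen load and gland signal cannot be told apart in this design. In addition, replicate 1 of the non-pollen group had a summed level of 61.5 FPKM (fragments scaled to gene length and library total) over 14 taste and smell genes, where the other non-pollen libraries had 239 and 240 FPKM.

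Because so few genes took so many counts in the non-pollen libraries, 2 scales are given. CPM (counts scaled to a common library size) after TMM scaling, which takes most genes as unchanged, was the scale of the tests. FPKM as deposited divides by the library total and by gene length, and is the only scale on which levels of different genes are compared here. With library totals the median log2 fold change of all tested genes was 0.53 for pear and 0.47 for rapeseed against non-pollen, and -0.0506 for rapeseed against pear, whereas with TMM it was -0.00503, -0.0204 and -0.00723. Among genes called for pear against non-pollen, 91.8% were higher with library totals alone and 51.2% with TMM. The matching shares were 90.0% and 49.4% for rapeseed against non-pollen, and 40.0% and 61.6% for rapeseed against pear. The calls on the gland list were mixed against non-pollen. With TMM, of its 25 tested genes 7 were called higher and 14 lower in pear, and 8 and 12 in rapeseed. Of all tested genes 28.5% were called higher and 27.2% lower in pear, and 29.3% and 30.0% in rapeseed. With library totals 12 of the gland genes were higher and 10 lower in each. The most abundant of them, major royal jelly protein 2-like LOC107994025, was at -6.46 in pear and -7.66 in rapeseed with TMM. Alpha-glucosidase LOC107993622 was at -4.57 and -4.01. Some gland genes are matched by name only, such as lysosomal alpha-glucosidase-like LOC108000607.

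The order of the 4 genes by length-corrected level differed between the groups. In non-pollen libraries vitellogenin was highest at 66.6 ± 2.99 FPKM (SD, n = 3). It was followed by hexamerin-like at 45.7 ± 2.2 and apolipophorins at 45.5 ± 1.34 FPKM, whose libraries overlapped, and vitellogenin-like was lowest at 6.62 ± 0.411 FPKM. In pear libraries vitellogenin was again highest at 79.0 ± 3.43 FPKM, ahead of apolipophorins at 63.3 ± 0.166, vitellogenin-like at 17.9 ± 1.56 and hexamerin-like at 2.07 ± 0.388 FPKM. In rapeseed libraries apolipophorins led with 73.2 ± 1.30 FPKM, followed by vitellogenin at 51.9 ± 0.996, vitellogenin-like at 15.1 ± 0.733 and hexamerin-like at 1.31 ± 0.211 FPKM. Neighbours in the pear and rapeseed orders did not overlap in any library. The 4 genes together took 0.104 to 0.110% of counts in non-pollen, 0.118 to 0.122% in pear and 0.113 to 0.116% in rapeseed.

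**Figure D1:**
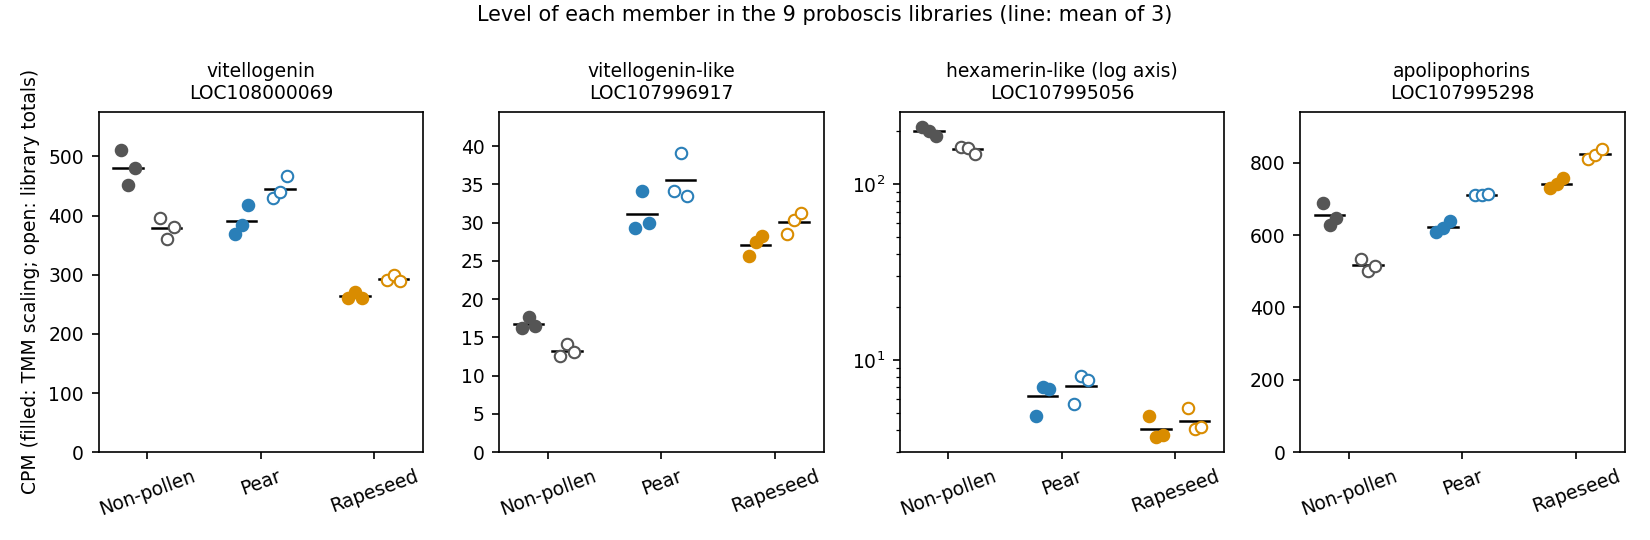
Level of each gene in every library in CPM, with TMM scaling (filled) and with library totals (open); lines are means of 3 libraries, the vertical axes start at 0 except for hexamerin-like, which has a log axis. Vitellogenin is lowest in rapeseed on both scales, while pear lies below non-pollen when TMM is used and above it with library totals; hexamerin-like is high in the non-pollen libraries alone.

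Hexamerin-like had the largest change of the 4 genes. It lies on scaffold NW_016018567.1 from 282525 to 286727, plus strand, and its counts and FPKM imply a gene length of 3438 bases. In the non-pollen libraries it was at 212, 202 and 188 TMM CPM, in pear at 4.79, 7.05 and 6.86, and in rapeseed at 4.81, 3.66 and 3.74. Every non-pollen library stood far above every library of pollen carriers, while replicate 1 of rapeseed lay just above replicate 1 of pear. Against non-pollen the level was 32.2-fold lower in pear (log2 fold change -5.01, SE 0.1, adjusted p = 3.60e-20, edgeR quasi-likelihood test) and 49.1-fold lower in rapeseed (-5.62, SE 0.105, adjusted p = 8.37e-21). These were the 40th and the 27th lowest of the 9259 log2 fold changes. Both comparisons use the same 3 non-pollen libraries. Library totals gave -4.47 and -5.13, and without replicate 1 of non-pollen the values were -4.97 and -5.58. In these bulk samples fewer cells of a type and less RNA per cell cannot be told apart, for this gene and for those that follow. The gland share given above was high in the same 3 libraries, and its part in the fall of hexamerin-like was not tested. Among pollen carriers, hexamerin-like was lower in rapeseed than in pear (-0.61, SE 0.123, adjusted p = 0.0015). The 3 rapeseed libraries held 199 to 286 counts and the pear libraries 254 to 371, and groups did not overlap in FPKM (1.18 to 1.56 against 1.63 to 2.35). On the log2(FPKM + 1) scale, where low genes change less, the difference was -0.40 (limma, adjusted p = 0.0281).

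A further pair of genes described as hexamerin-like could not be tested. LOC107999925 reached at most 54 counts and LOC108000006 at most 10 in any library, and their group means lay between 0.247 and 0.283 FPKM and between 0.0691 and 0.121 FPKM. Of the 3 hexamerin-like genes in the table, LOC107995056 thus carried most of the signal in every group.

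Vitellogenin was lower in rapeseed than in either other group. It lies on scaffold NW_016017501.1 from 416949 to 423241, minus strand, with an implied length of 5643 bases, and RefSeq lists it under the synonym Vg. It was at 511, 451 and 480 TMM CPM in non-pollen, 369, 384 and 418 in pear, and 261, 271 and 261 in rapeseed. The groups did not overlap, and the rapeseed libraries lay closest together. Rapeseed was 0.677-fold of pear (-0.56, SE 0.0455, adjusted p = 9.31e-09) and 0.55-fold of non-pollen (-0.86, SE 0.0456, adjusted p = 6.91e-13). With library totals these were -0.60 and -0.37, so the difference from pear kept its size and the difference from non-pollen shrank. For rapeseed against pear, vitellogenin had the 141st lowest log2 fold change of the 9259 tested genes.

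Whether vitellogenin was lower or higher in pear than in non-pollen depended on the scaling: it fell by 0.30 on the log2 scale with TMM (SE 0.0452, adjusted p = 8.83e-06), whereas it was 0.23 higher with library totals (adjusted p = 7.22e-06). In FPKM the non-pollen libraries read 69.3, 63.4 and 67.1, those of pear 76.2, 78.0 and 82.8, and those of rapeseed 51.5, 53.1 and 51.2. On this scale the pear libraries were all above the non-pollen ones, the reverse of their order in TMM CPM. The rank of vitellogenin among the 12757 genes, which needs no scaling between libraries, was 681 to 762 in non-pollen, 873 to 984 in pear and 1366 to 1418 in rapeseed. So more genes lay above it in pear, and more still in rapeseed, than in non-pollen libraries.

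Vitellogenin-like changed the other way from vitellogenin against non-pollen with TMM, while with library totals both rose in pear. It lies on scaffold NW_016019108.1 from 1244485 to 1247724, plus strand, with an implied length of 1987 bases, much shorter than vitellogenin. Its libraries were at 16.2, 17.7 and 16.5 TMM CPM in non-pollen, 29.2, 34.2 and 29.9 in pear, and 25.6, 27.4 and 28.2 in rapeseed. All libraries of pollen carriers were above all non-pollen libraries, and the lowest pear library was above the highest rapeseed one. It rose 1.85-fold in pear (0.89, SE 0.0826, adjusted p = 8.78e-09) and 1.61-fold in rapeseed (0.69, SE 0.0826, adjusted p = 3.72e-07) against non-pollen, and library totals gave larger rises of 1.42 and 1.18 on the log2 scale. Of 26 muscle markers, given further on, 18 rose and 5 fell in pear, and 18 rose and 6 fell in rapeseed. Among all tested genes 28.5% rose and 27.2% fell in pear, and 29.3% and 30.0% in rapeseed. The part of muscle in the rise of vitellogenin-like was not tested. Between rapeseed and pear the difference was -0.20 (95% interval -0.367 to -0.0334) and did not pass the test with adjustment over all genes (adjusted p = 0.117, edgeR). With library totals it was -0.24 and just passed (adjusted p = 0.0498). An unnamed gene on the other strand, LOC107996918, overlaps it from 1244364 to 1246114 and held 11 to 82 counts, 2.00 to 5.29% of those of vitellogenin-like. The library kit marked strand, but whether counting used it is not stated in the labels, so reads of the overlapping pair cannot be told apart.

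Apolipophorins rose in rapeseed against both other groups. The gene lies on scaffold NW_016018678.1 from 226383 to 262217, plus strand, with an implied length of 11245 bases. It was at 689, 627 and 648 TMM CPM in non-pollen, 610, 620 and 638 in pear, and 729, 741 and 757 in rapeseed. The rapeseed libraries were above all others, while those of pear and non-pollen overlapped. Rapeseed was 1.19-fold of pear (0.25, SE 0.0355, adjusted p = 2.56e-05), and 0.21 higher with library totals. Against non-pollen the rise in rapeseed was 0.18 (SE 0.0356, adjusted p = 0.000177) with TMM and 0.67 with library totals. In pear the difference from non-pollen was -0.0721 (95% interval -0.146 to 0.00207, adjusted p = 0.0916, edgeR) with TMM and turned to a rise of 0.46 with library totals (adjusted p = 5.37e-12). Without replicate 2 of non-pollen the fall in pear passed the test at -0.10 (adjusted p = 0.0264), and without replicate 1 it was -0.0341 and did not (adjusted p = 0.401).

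Thus in pear against non-pollen 3 of the 4 genes passed the test, 1 higher and 2 lower, where 55.7% of all tested genes were called (28.5% higher and 27.2% lower). In rapeseed against non-pollen all 4 did, 2 higher and 2 lower, beside 59.3% of all genes (29.3% higher and 30.0% lower). In these 2 comparisons most of the tested genes were called, so nothing is read from the counts of the 4. Between rapeseed and pear 3 of 4 passed, apolipophorins higher and vitellogenin and hexamerin-like lower, where 12.9% of all genes were called (7.94% higher and 4.96% lower). All 3 kept their direction and their side of the threshold under every alternative run.

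**Figure D2:**
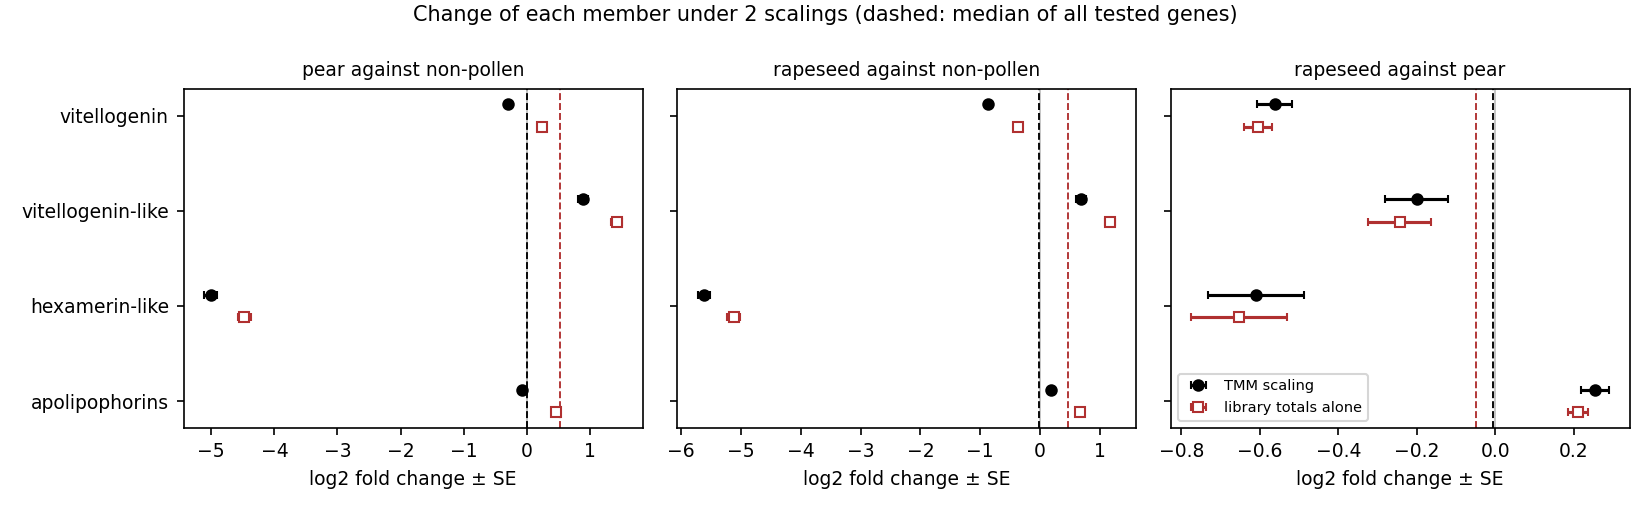
Log2 fold change of each gene with its standard error in 3 comparisons, with TMM scaling (filled circles) and library totals (open squares); dashed lines mark the median of all tested genes on each scale. In pear against non-pollen vitellogenin moves from -0.30 to 0.23 and apolipophorins from -0.0721 to 0.46 between the scales, while in rapeseed against pear the values of the 2 scales lie close together.

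Ratios between the genes inside a library are free of any scaling between libraries. For 1 unit of apolipophorins in FPKM there were 1.46 ± 0.0247 units of vitellogenin in non-pollen, 1.25 ± 0.0516 in pear and 0.710 ± 0.0213 in rapeseed (SD, n = 3). The ratio fell below 1 in the 3 rapeseed libraries only, and the 3 groups did not overlap. RNA of the yolk protein was thus lower relative to RNA of the lipid carrier in both pollen groups, whichever scaling is used. Vitellogenin over vitellogenin-like was 10.1 ± 1.06 in non-pollen, 4.43 ± 0.477 in pear and 3.44 ± 0.174 in rapeseed, again with no overlap. Vitellogenin-like over apolipophorins was 0.146 ± 0.0133, 0.283 ± 0.0254 and 0.207 ± 0.00685 in the same order, so that this ratio was highest in pear. Hexamerin-like over apolipophorins was 1.0 ± 0.0527 in non-pollen, 0.0327 ± 0.00614 in pear and 0.0180 ± 0.00313 in rapeseed. Hexamerin-like over vitellogenin was 0.687 ± 0.0462 in non-pollen and did not separate pear (0.0261 ± 0.00444) from rapeseed (0.0253 ± 0.00430), whose libraries overlapped. With 3 libraries against 3 an exact permutation test cannot go below 0.10, so no p is given for the ratios.

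**Figure D3:**
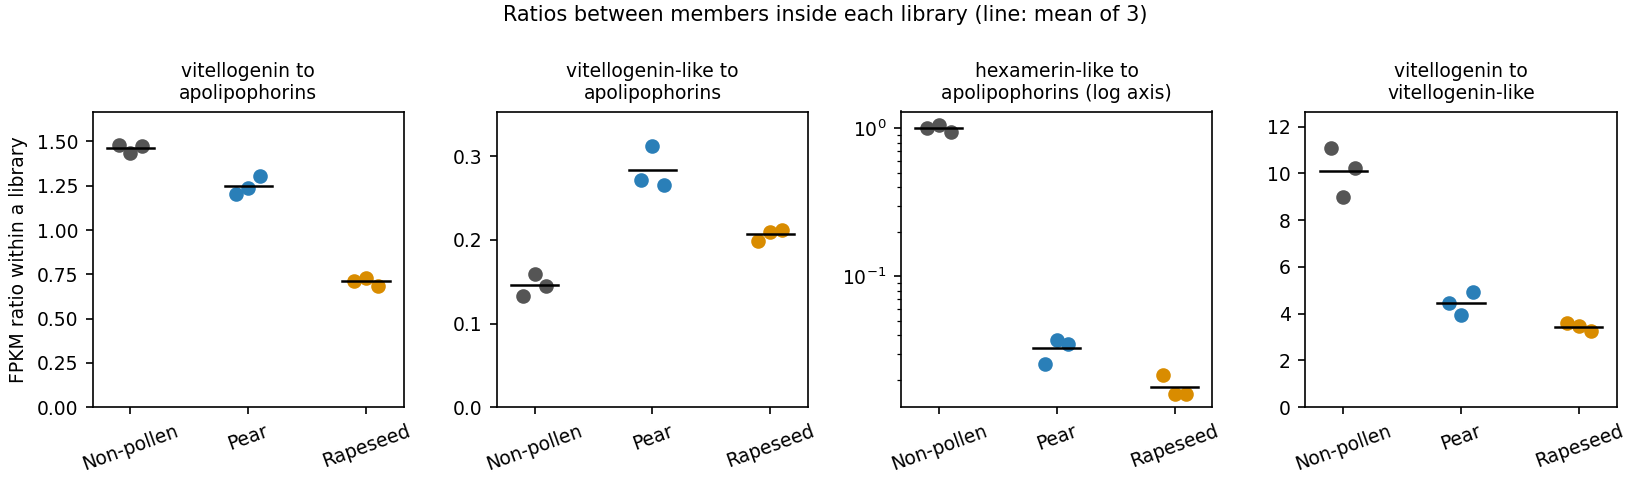
Ratio of FPKM values of 2 genes inside each library; points are libraries, lines means of 3, and the hexamerin-like panel has a log axis. Vitellogenin to apolipophorins falls from 1.46 in non-pollen to 0.710 in rapeseed, and vitellogenin-like to apolipophorins is highest in pear at 0.283.

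No other storage or carrier gene passed the edgeR test between the pollen groups. The list of 15 genes, matched on descriptions, held besides the 4 the iron carriers (transferrins, ferritins), apolipoproteins D, which bind small lipids, and the untested hexamerin-like pair. Of the 9 other genes tested, 0 passed in rapeseed against pear (median 0.0165, median of all tested genes -0.00723), while 3 had an unadjusted p below 0.05, 2 passed with DESeq2 and 1 passed, lower, with library totals. Only 12.9% of all tested genes were called in this comparison, so nothing is read from 0 of 9. Against non-pollen 2 rose and 6 fell in pear (median -0.32, all genes -0.00503), and also 2 and 6 in rapeseed (median -0.25, all genes -0.0204). The shares over all tested genes were 28.5% higher and 27.2% lower in pear, and 29.3% and 30.0% in rapeseed. With library totals the counts turned to 6 higher and 2 lower in pear (median 0.22, all genes 0.53) and 6 higher and 1 lower in rapeseed (median 0.24, all genes 0.47), so the list lay below the median gene on both scales.

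The most abundant carrier was transferrin LOC108000556, an iron carrier of the blood, with group means of 1102, 1521 and 1448 FPKM in non-pollen, pear and rapeseed, and log2 fold changes of -0.0816 (adjusted p = 0.0663) and -0.11 (adjusted p = 0.0147) against non-pollen. The ferritins, which store iron, included ferritin heavy polypeptide-like 17 (LOC108004139, -0.42 in both) and ferritin subunit (LOC108004138, -0.63 in pear and -0.54 in rapeseed), with soma ferritin (LOC108002509) at -1.13 and -1.17. All 3 ferritins passed in both groups with TMM, and with library totals LOC108004139 turned to 0.12 and 0.0676, while the other pair stayed below 0. Apolipoprotein D LOC108002477 was at -0.32 and -0.30, its relative LOC108000916 at -0.45 and -0.23, the latter not past the threshold (adjusted p = 0.0608), and melanotransferrin LOC108002332 at -0.18 and -0.25. The values of these 3 genes were all above 0 with library totals. A second transferrin, LOC108000754, rose by 0.55 and 0.68, and apolipoprotein D-like LOC108001455 by 1.26 and 1.32, from a low mean of 0.623 FPKM in non-pollen, and both rose with library totals as well.

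**Figure D4:**
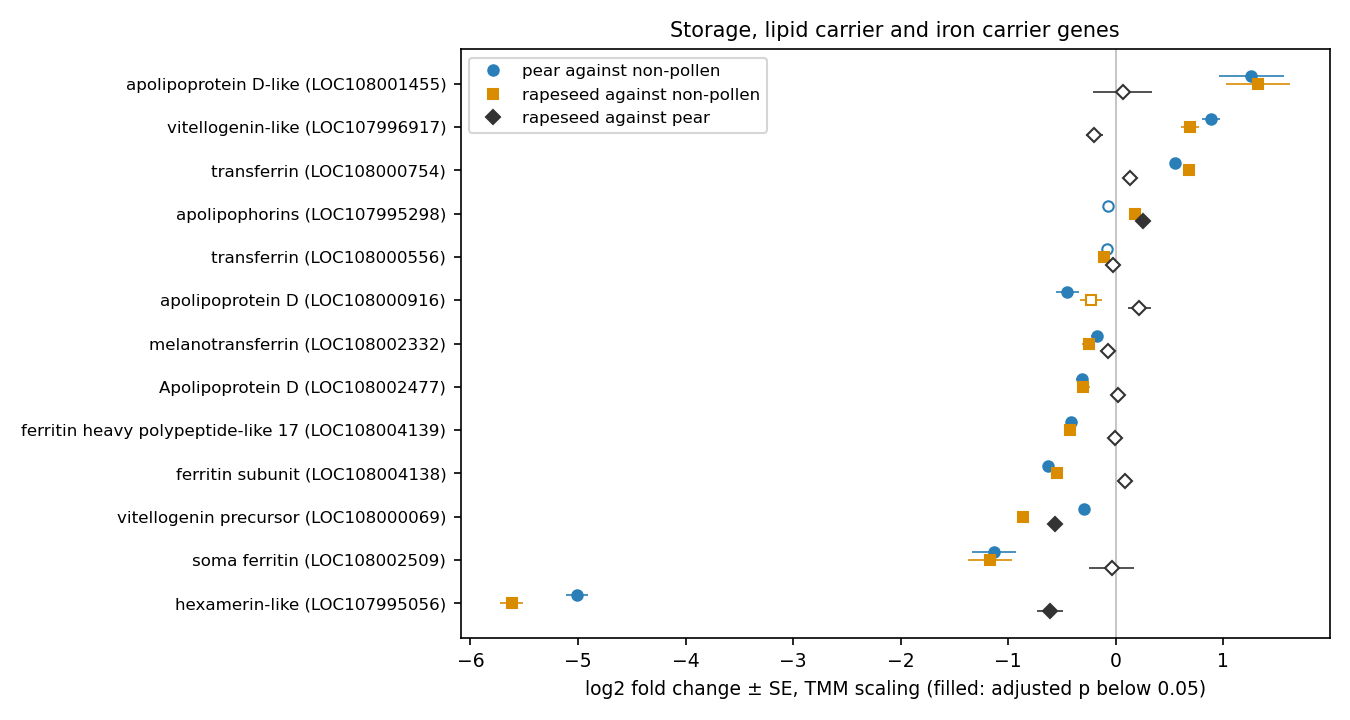
Log2 fold change with its standard error of the 13 tested storage, lipid carrier and iron carrier genes in 3 comparisons with TMM scaling; filled symbols passed the test at an adjusted p below 0.05. In rapeseed against pear only apolipophorins, vitellogenin and hexamerin-like are filled, at 0.25, -0.56 and -0.61; against non-pollen, several of the genes below 0 lie above 0 with library totals.

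Receptors and loading factors of these particles were described from a list of 14 genes, of which 11 were tested. Between rapeseed and pear 7.94% of all tested genes were called higher and 4.96% lower. Of the listed genes 2 rose, none fell and 9 did not pass (median 0.000294, all genes -0.00723). One of the 2 was low-density lipoprotein receptor-related protein 2 (LOC108003306), of the receptor family that takes up lipoproteins, at 11.6, 19.5 and 22.6 FPKM in non-pollen, pear and rapeseed (rapeseed against pear 0.25, SE 0.0407, adjusted p = 0.000137). The other was diacylglycerol O-acyltransferase 1 (LOC107996211), an enzyme of fat synthesis (0.19, adjusted p = 0.0457). Against non-pollen 5 rose and 2 fell in pear and 5 rose and 1 fell in rapeseed (medians 0.18 and 0.18, all genes -0.00503 and -0.0204). Of all tested genes 28.5% rose and 27.2% fell in pear, and 29.3% and 30.0% in rapeseed. With library totals 10 rose and none fell in each, where 6946 and 6484 of all 9259 tested genes rose. Among the listed genes the surface protein of lipid droplets LOC107996276 was at 83.9, 139 and 135 FPKM in non-pollen, pear and rapeseed, or 0.18 higher with TMM in either pollen group. The genes described as vitellogenin receptor (LOC107996345 and LOC107994670) were too low to be tested, at no more than 141 and 111 counts in any library.

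The hormone genes around vitellogenin were taken from a list of 36 descriptions of juvenile hormone, ecdysone and insulin signalling, 23 of them tested. Between rapeseed and pear 7.94% of all tested genes were called higher and 4.96% lower. Of the listed hormone genes 5 rose, 1 fell and 17 did not pass (median 0.0634, all genes -0.00723). Juvenile hormone epoxide hydrolase LOC108003695, which breaks the hormone down, was at 115, 199 and 261 FPKM in non-pollen, pear and rapeseed. With TMM it was higher than in non-pollen by 0.25 in pear and 0.68 in rapeseed, and higher in rapeseed than in pear by 0.43 (adjusted p = 1.76e-09). Juvenile hormone esterase-like LOC107997716, described as the other degrading enzyme, was at 92.7, 144 and 167 FPKM. With TMM the difference from non-pollen was 0.0873 in pear, which did not pass (adjusted p = 0.0571, edgeR), and 0.34 in rapeseed, and rapeseed was higher than pear by 0.26. Ecdysone-induced protein 75 LOC107997697, a nuclear receptor, was higher in rapeseed than in pear by 0.20, whereas broad-complex LOC107998389 (-0.0662) and insulin-like growth factor I LOC107995269 (0.0634) did not pass between the pollen groups. The other calls, named after their values were seen, were juvenile hormone acid O-methyltransferase LOC108002008, an enzyme of hormone synthesis (1.12, adjusted p = 0.0123), the nuclear receptor FTZ-F1 beta LOC107999163 (0.20) and ultraspiracle LOC108003778, the partner of the ecdysone receptor (-0.16). Against non-pollen 12 rose and 4 fell in pear and 13 rose and 4 fell in rapeseed (medians 0.25 and 0.27, all genes -0.00503 and -0.0204). Of all tested genes 28.5% rose and 27.2% fell in pear, and 29.3% and 30.0% in rapeseed. With library totals 21 rose and 1 fell in pear, and 19 and 2 in rapeseed. On that scale 6946 of all 9259 tested genes rose and 620 fell in pear, and 6484 and 723 in rapeseed. Some listed genes are matched by name only and do not signal in these pathways, such as insulin-like growth factor 2 mRNA-binding protein.

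Markers of other tissues were set beside these genes, first those of cells known to make or carry the proteins. For the fat body, the tissue of storage in insects, 20 genes were listed by names of fat and sugar storage. Some are matched by name only, such as glycogen synthase kinase-3 beta and a muscle fatty acid-binding protein, and 12 of the 20 were tested. In rapeseed against pear 3 rose and 1 fell (median 0.00308), and their summed level was 808 to 824 FPKM in pear and 797 to 804 in rapeseed, against 622 to 637 in non-pollen. With TMM 7 rose and 5 fell in pear (median 0.18, all tested genes -0.00503) and 6 rose and 5 fell in rapeseed (median 0.00993, all tested genes -0.0204) against non-pollen. Glycogen phosphorylase LOC107993062 was at -0.0481 and acyl-CoA Delta(11) desaturase-like LOC108000080 at -0.00369 between the pollen groups, neither past the threshold. The gene that fell, fatty acid synthase-like LOC108000565, named after its value was seen, was at 37.0, 75.1 and 45.7 FPKM in non-pollen, pear and rapeseed (-0.67 in rapeseed against pear, adjusted p = 5.97e-13). For blood cells 8 of 10 listed genes were tested, most of them scavenger receptors that other cells express too. Of these 5 rose and none fell in rapeseed against pear (median 0.32, all tested genes -0.00723), with summed levels of 151 to 162 FPKM in non-pollen, 251 to 260 in pear and 305 to 312 in rapeseed. With TMM 4 rose and 2 fell in pear (median 0.15) and 5 rose and 3 fell in rapeseed (median 0.48) against non-pollen. The genes that rose were all scavenger receptors. The others, named after their values were seen, lay lower than in non-pollen. Hemocytin LOC108001681 was at -0.34 in pear and -0.46 in rapeseed, and croquemort-like LOC108000859 at -1.19 and -1.01. Croquemort-like LOC108002399 was at -0.17 (adjusted p = 0.0505, edgeR) and -0.20. With library totals only LOC108000859 of these stayed below 0. Muscle and nerve markers, like all tested genes, were called more often against non-pollen than between the pollen groups. Of all tested genes 28.5% rose and 27.2% fell in pear, and 29.3% rose and 30.0% fell in rapeseed, against non-pollen. Between rapeseed and pear 12.9% were called. Of 26 tested muscle genes 18 rose and 5 fell in pear (median 0.49), and 18 rose and 6 fell in rapeseed (median 0.42). Their summed level was 10624 to 10893 FPKM in non-pollen, 23342 to 24352 in pear and 21678 to 21737 in rapeseed. Vitellogenin-like had the same order of groups in FPKM, and so had the fat body list. Of 20 tested nerve genes 4 rose and 15 fell in pear (median -0.59), and 3 rose and 13 fell in rapeseed (median -0.51). With library totals 7 rose and 7 fell in pear and 7 rose and 8 fell in rapeseed. Nerve medians on that scale were -0.0545 and -0.0164, where those of all tested genes were 0.53 and 0.47. The nerve list thus lay below the median gene on both scales. Between rapeseed and pear 2 muscle genes rose and 6 fell, and 1 of the 20 nerve genes passed, higher in rapeseed. Of 18 tested cuticle genes 7 rose and 4 fell in pear (median 0.17), and 8 rose and 3 fell in rapeseed (median 0.32). The part of these tissues in the levels of the 4 genes was not tested.

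The genes most like each member were sought among 5854 described genes by Pearson correlation of log2 TMM CPM over the 9 libraries. These libraries form 3 groups and share the scaling, so each r mostly restates the group means and is given as a description. For vitellogenin they were the esterase E4-like genes LOC108003932 (r = 0.993) and LOC108003111 (r = 0.987), and hymenoptaecin LOC107993492 (r = 0.985), an antimicrobial peptide. Hymenoptaecin was at 249, 176 and 25.5 FPKM in non-pollen, pear and rapeseed, a steeper decline than that of vitellogenin. For hexamerin-like they were futsch LOC107998421 (r = 0.999), major royal jelly protein 2-like LOC107994025 (r = 0.998) and proliferation-associated protein 2G4 LOC108003380 (r = 0.998). The royal jelly gene fell by 6.46 in pear and by 7.66 in rapeseed on the log2 scale. Futsch was at -0.96 and -1.12 and LOC108003380 at -0.63 and -0.71, so a high r went with changes of unlike size. For vitellogenin-like they were a muscle calcium channel subunit LOC108000920 (r = 0.990), bromodomain adjacent to zinc finger domain protein 2B-like LOC108002081 (r = 0.987) and FK506-binding protein 5-like LOC107992950 (r = 0.986). For apolipophorins r was lower, at 0.968 for henna LOC107994899, which encodes phenylalanine hydroxylase in flies, 0.966 for a mitochondrial aldehyde dehydrogenase (LOC107998471) and 0.961 for lethal(2)essential for life-like LOC107996026, a small heat shock gene.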

How the data were processed

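The authors deposited whole-number counts and FPKM per gene for 9 paired-end libraries made from poly(A)-selected RNA. According to the submitters' processing notes edgeR, DESeq2, StringTie 2.1.6, HISAT2 2.2.1 and cutadapt 1.9 were used, with no step named. The genome build, the strand setting and the treatment of multi-mapping reads were not given in the sources used here. The paper describes another experiment. A gene was tested where at least 3 libraries reached an FPKM of 1, by the quasi-likelihood test of edgeR 4.0.16 (R 4.3.3) with TMM scaling and the 3 groups fitted together; p-values were adjusted by Benjamini-Hochberg across the 9259 genes (threshold 0.05). The script was first tested on simulated data. Alternatives were library totals, TMM without gland genes, no filter, a replicate block, only the groups compared, DESeq2 1.42.0, limma 3.58.1 on log2 of FPKM plus 1 or 0.1, and leaving out each library. Libraries of a group differed by more than sampling noise (chi-square per degree of freedom 6.03 to 14.2). The 4 genes and the lists were chosen with earlier results of these data known. Named were the 4 genes, all storage and carrier genes, up to 5 genes per list and 2 per marker list by mean FPKM, and for each of the 4 the 3 most like it among described genes with a mean of at least 5 FPKM in 1 group. RefSeq (AcerK_1.0) served for names only. No sequences were analysed here.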

Additional observations from a re-analysis of the deposited data

Results flagged for a closer look

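For 3 genes the change against non-pollen differed between the 2 pollen groups, by the direct edgeR test of rapeseed against pear. Vitellogenin was lower in rapeseed by -0.56 on the log2 scale, in 3 of 3 libraries. Hexamerin-like was lower by -0.61, with the libraries of the 2 groups overlapping in TMM CPM. Apolipophorins were higher by 0.25, in 3 of 3 libraries. Both changes are measured from the same 3 non-pollen libraries, which drop out of this difference.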

How the results depend on the processing

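Of 204 values of the 4 genes under the alternatives, 195 kept their direction and their side of the threshold. Of the others, 6 reversed, all for pear against non-pollen: vitellogenin turned from -0.30 to 0.23 with library totals and to 0.24 and 0.25 with limma on log2 FPKM plus 1 and plus 0.1, and apolipophorins from -0.0721 to 0.46, 0.47 and 0.47. A further 3 passed the threshold only under the alternative: apolipophorins in pear against non-pollen at -0.0902 with TMM computed without gland genes and at -0.10 without replicate 2 of non-pollen, and vitellogenin-like in rapeseed against pear at -0.24 with library totals. With each library left out in turn the apolipophorins value ran from -0.10 to -0.0341, and of these only the value without replicate 2 of non-pollen passed. The cause was not tested beyond the scaling itself. The numbers of called genes (5155, 5489 and 1194 for pear and rapeseed against non-pollen and rapeseed against pear) were 7566, 7207 and 1374 with library totals. Replicate numbers did not pair the libraries, since same-numbered deviations correlated between -0.149 and 0.0600 and 0 of 9 libraries correlated best with their own number. The fit with a replicate block called 5094, 5408 and 1098, and no call of the 4 genes changed. Depth limits mainly hexamerin-like in pollen carriers, at 199 to 371 counts.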
